A study of Mus musculus with 16 samples.

Results

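B cell identity genes were followed through CD11c-eYFP+ and CX3CR1+ cells sorted from mouse brain and spleen. The 9 genes chosen by name were Cd79a, Cd79b, Blk, Bank1, Pax5, Ebf1, Ms4a1, Cr2 and Fcer2a, out of 50600 genes in the count table, and all 9 were found and tested. RNA sequencing was done on 16 libraries, 4 in each of 4 groups. Brain CD11c cells were CD11c-eYFP+ cells of the ischemic hemisphere and spleen CD11c cells were CD11c-eYFP+ cells of the spleen, both from Tg(Itgax-Venus)1Mnz mice, in which the Itgax promoter drives the reporter. Ischemic microglia were CX3CR1+ cells of the ischemic hemisphere and control microglia were CX3CR1+ cells of control brain, both from CX3CR1CreERT2:Rosa26-tdT mice, in which a Cre under the Cx3cr1 promoter switches on tdTomato. All mice were males of 13 to 14 weeks. Mouse line changes together with the reporter, so line and sorted population cannot be told apart, and the sources used here give neither the time after ischemia nor the state of the spleen donors. No library was sorted on a B cell marker, and nothing in the labels says that the libraries of a group came from separate animals, so the p-values measure the spread between libraries. Brain CD11c replicate 1 and spleen CD11c replicate 4 share the number 11 in their titles, and whether they came from 1 mouse is not stated, while the model takes all libraries as independent.

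The B cell receptor is a membrane immunoglobulin held by the signalling chains CD79A and CD79B, which pass the signal on through tyrosines that Src-family kinases phosphorylate. The transcription factors EBF1 and PAX5 set up and hold the B lineage programme, and PAX5 directly activates Cd79a among other genes. Mature B cells of the spleen carry CD20 (Ms4a1), the complement receptors made by Cr2 and, on follicular cells, the low-affinity IgE receptor CD23 (Fcer2a), whereas the healthy brain parenchyma holds few B cells.

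All 9 genes are protein-coding. Gene positions are those of GENCODE M21 on GRCm38. Cd79a (ENSMUSG00000003379) lies at chr7:24897381-24902197 on the plus strand and Cd79b (ENSMUSG00000040592) at chr11:106311341-106314762 on the minus strand. Blk (ENSMUSG00000014453) lies at chr14:63372836-63417037, Bank1 (ENSMUSG00000037922) at chr3:136053363-136326066, Pax5 (ENSMUSG00000014030) at chr4:44524757-44710487 and Ms4a1 (ENSMUSG00000024673) at chr19:11249675-11266241, all on the minus strand. Ebf1 (ENSMUSG00000057098) lies at chr11:44617317-45008091 on the plus strand, Cr2 (ENSMUSG00000026616) at chr1:195136811-195176716 and Fcer2a (ENSMUSG00000005540) at chr8:3681737-3694175, the last 2 on the minus strand. Exons of Pax5 overlap 2 genes on the opposite strand, Gm12462 with 3 counts in all 16 libraries together and 5730488B01Rik with 87 counts, and the sources used here do not give the strand setting of the counting.

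RefSeq promoter windows (GRCm38.p6, 250 bases before to 50 after the start) matched 6 of the 9 genes, Cd79a, Pax5, Ebf1, Cr2, Fcer2a and Bank1. The windows of 3 genes are printed 5′ to 3′ on the gene's strand because they span the range of patterns described below. Cd79a and Cr2 were counted almost wholly in spleen libraries, and Bank1 was also counted in microglia. The windows are chr7:24897247-24897546 for Cd79a, chr1:195176670-195176969 for Cr2 and chr3:136326017-136326316 for Bank1, and capitals mark matches to the motifs named in the next paragraph.
Cd79a: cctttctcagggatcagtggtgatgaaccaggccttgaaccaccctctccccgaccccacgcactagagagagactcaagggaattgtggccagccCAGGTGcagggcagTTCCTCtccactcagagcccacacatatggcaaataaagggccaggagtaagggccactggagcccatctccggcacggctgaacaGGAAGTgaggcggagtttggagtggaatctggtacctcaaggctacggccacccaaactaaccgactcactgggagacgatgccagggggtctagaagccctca
Cr2: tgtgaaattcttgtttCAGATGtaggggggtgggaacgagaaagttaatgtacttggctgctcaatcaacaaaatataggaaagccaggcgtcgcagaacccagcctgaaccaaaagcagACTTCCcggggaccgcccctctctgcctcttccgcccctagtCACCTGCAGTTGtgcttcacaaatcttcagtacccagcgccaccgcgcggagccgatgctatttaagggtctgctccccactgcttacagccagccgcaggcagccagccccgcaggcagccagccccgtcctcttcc
Bank1: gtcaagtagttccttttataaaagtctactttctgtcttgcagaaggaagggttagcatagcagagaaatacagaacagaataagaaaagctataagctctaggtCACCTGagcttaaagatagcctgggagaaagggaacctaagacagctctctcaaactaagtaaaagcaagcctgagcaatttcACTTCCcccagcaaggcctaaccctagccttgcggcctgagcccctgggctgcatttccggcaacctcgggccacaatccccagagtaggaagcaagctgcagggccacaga

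The motifs searched on both strands were CAGNTG (an E-box of the type E2A binds), GAGGAA (PU.1 type), GGAAGT (an Ets core), ATTTGCAT (the octamer) and the EBF1 palindrome. In Cr2 the E-box matches that begin 88 and 82 bases before the start adjoin each other. The RefSeq table holds 9 windows for these 6 genes, since Ebf1 has 2 and Fcer2a has 3, and for each gene the window nearest to its GENCODE start was taken. The E-box stood in 3 of the 6 windows (5 of all 9), against 51.4% of all 32851 mouse windows in the RefSeq table. GGAAGT stood in 4 of the 6 windows (5 of all 9), against 23.8% of all windows, and GAGGAA in 1 of the 6 (2 of all 9), against 28.3%. The octamer and the EBF1 palindrome stood in 0 of the 6 windows, and in 0 of all 9, against 1.74% and 0.904% of all windows. In Cd79a the Ets core began 54 bases before the RefSeq start and in Bank1 62 bases before it. RefSeq starts stood 116 (Cd79a), 783 (Ebf1), -207 (Pax5), -3 (Cr2), 1 (Fcer2a) and 0 (Bank1) bases from the GENCODE starts, positive being downstream. By the GENCODE positions the Ets core of Cd79a and the whole Ebf1 window thus lie inside the gene. A match or its lack describes these letters only.

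Libraries held 31569304 to 48245164 counts. Values are CPM, counts scaled to a fixed library total, on library sizes scaled by TMM, and 16345 genes were tested with edgeR. Where a group is given as mean ± SD, n = 4. Microglia markers (P2ry12, Tmem119, Sall1 and 5 others) summed to 7740 to 8930 CPM in brain CD11c cells, 197 to 280 CPM in spleen CD11c cells, 18300 to 25700 CPM in ischemic microglia and 25800 to 31000 CPM in control microglia. Conventional dendritic cell markers (Zbtb46, Flt3 and 8 others) summed to 528 to 1380 CPM in brain CD11c cells and 871 to 1360 CPM in spleen CD11c cells, against 23.3 to 28.9 CPM in ischemic microglia and 46.3 to 69.3 CPM in control microglia. Brain CD11c replicates 1 and 2 stood apart from replicates 3 and 4 on the third principal component, at -18.7 and -22.9 against 49.7 and 65.3. In these bulk libraries fewer B cells and less RNA of a B cell gene per cell cannot be told apart.

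The spleen CD11c libraries carried all 9 genes at high levels. Together the 9 genes summed to 16.0 to 24.5 CPM in brain CD11c cells, 2650 to 3270 CPM in spleen CD11c cells, 34.4 to 44.3 CPM in ischemic microglia and 84.1 to 94.1 CPM in control microglia. Each gene was lower in brain than in spleen CD11c cells and higher in spleen CD11c cells than in control microglia, with no overlap between the libraries of the groups. Across all tested genes, 64.2% were called for brain against spleen CD11c cells (31.2% higher and 33% lower in brain) and 68.8% for spleen CD11c cells against control microglia (37.1% higher and 31.7% lower in spleen), and in 29.9% and 38.4% of genes the libraries did not overlap in those directions. Cd79a, Pax5, Ebf1, Ms4a1, Cr2 and Fcer2a passed the filter on low counts through their spleen libraries, the group where they are high. For these, neither the calls, the lack of overlap nor the size of the change can be set against all tested genes. The median log2 fold change of the 9 genes was -8.60 for brain against spleen CD11c cells, beside -0.036 for all tested genes. For spleen CD11c cells against control microglia it was 13.15, beside 0.106 for all tested genes. The comparisons share libraries and are therefore not independent of each other. Against control microglia the log2 fold change in spleen CD11c cells was 13.15 ± 0.34 for Cd79a (SE, edgeR adjusted p = 1.28e-14), and Cd79b passed as well (edgeR adjusted p = 1.01e-14). It was 1.77 ± 0.16 for Bank1 (edgeR adjusted p = 5.82e-08), the smallest of the 9.

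**Figure D1:**
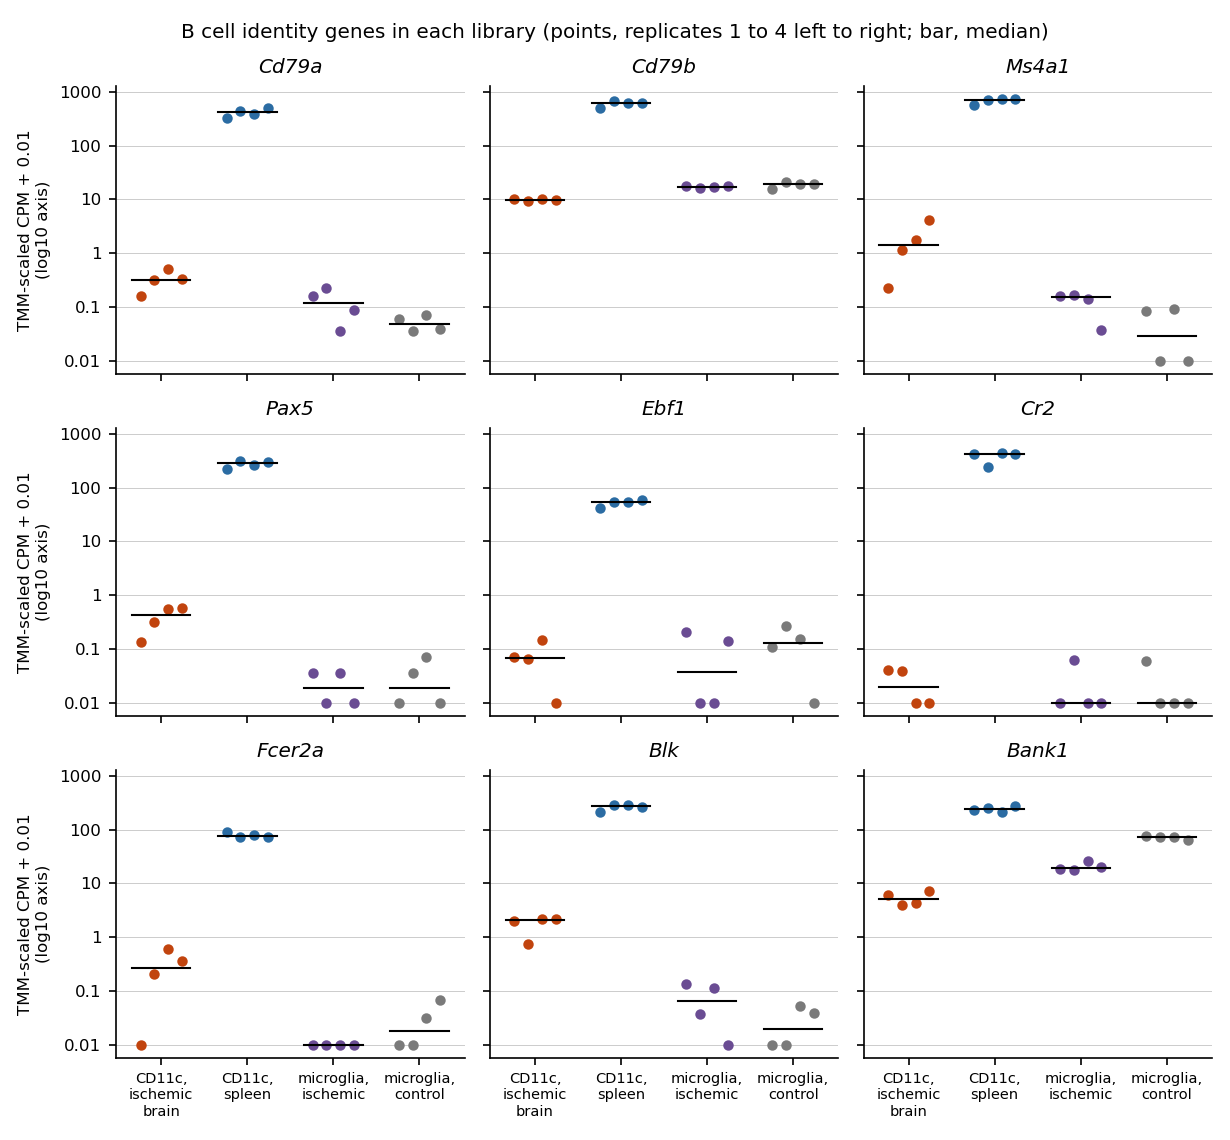
Level of each of the 9 B cell identity genes in every library, in CPM on a log axis, with 0.01 added so that a count of 0 can be drawn, by group (brain CD11c cells, spleen CD11c cells, ischemic microglia, control microglia), 4 points a group and a bar at the median. The spleen points stand above all others for every gene, and Cd79b and Bank1 lie above 1 CPM in every library.

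Cd79a encodes Igα, the first of the receptor's signalling chains. It was at 0.152, 0.308, 0.498 and 0.316 CPM in brain CD11c cells, against 336, 450, 395 and 498 CPM in spleen CD11c cells. Microglia held between 1 and 8 counts of Cd79a per library. The spleen libraries were thus far above all others, and the brain CD11c libraries, at 5 to 18 counts each, overlapped ischemic microglia, at 1 to 8 counts. Cd79a was lower in brain than in spleen CD11c cells by a log2 fold change of -10.34 ± 0.28 (SE, edgeR adjusted p = 6.08e-14). It was higher in brain CD11c cells than in ischemic microglia by 1.43 ± 0.43 (edgeR adjusted p = 0.0146), a call that was lost without brain CD11c replicate 3 (1.12, edgeR adjusted p = 0.0645) and with replicates 1 and 2 alone (0.97, edgeR adjusted p = 0.172).

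Cd79b encodes Igβ, the partner chain, and its pattern in the brain was unlike that of Cd79a. It was at 10.1, 9.19, 10.1 and 9.87 CPM in brain CD11c cells, against 500, 671, 630 and 634 CPM in spleen CD11c cells. In ischemic microglia it was at 17.9, 16.5, 17.3 and 17.5 CPM, against 15.5, 21.6, 19.8 and 19.4 CPM in control microglia. Every library therefore held Cd79b, from 312 counts upward, with the brain CD11c libraries lowest and both microglia groups overlapping. Cd79b differed by -5.95 ± 0.13 between brain and spleen CD11c cells (SE of log2 fold change, edgeR adjusted p = 8.42e-15) and by -0.82 ± 0.11 between brain CD11c cells and ischemic microglia (edgeR adjusted p = 1.9e-05). Between ischemic and control microglia the difference of -0.14 ± 0.11 did not pass the test (edgeR adjusted p = 0.342).

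The 2 chains, with exon lengths of 1.457 kb (Cd79a) and 1.431 kb (Cd79b), stood in different ratios in the groups. The count of Cd79b was 20.3 to 66.4 times that of Cd79a in brain CD11c libraries and 1.27 to 1.60 times in spleen CD11c libraries. In ischemic microglia it was 77.6 to 663 times and in control microglia 310 to 844 times, where the divisor was at most 8 counts. The ranges of brain and spleen CD11c libraries did not overlap.

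Blk, a Src-family kinase of B cells, was at 1.97, 0.728, 2.19 and 2.12 CPM in brain CD11c cells, against 213, 288, 284 and 269 CPM in spleen CD11c cells. Ischemic microglia held 5, 1, 4 and 0 counts and control microglia 0, 0, 2 and 1 counts. All brain CD11c libraries stood below spleen and above all microglia. The log2 fold change was -7.24 ± 0.32 for brain against spleen CD11c cells (SE, edgeR adjusted p = 2.16e-11) and 4.68 ± 0.49 for brain CD11c cells against ischemic microglia (edgeR adjusted p = 1.65e-06). Spleen CD11c cells exceeded control microglia 14400-fold in pooled counts per scaled depth, with a 95% counting interval of 4920 to 69700, since control microglia held 3 counts in all.

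Bank1, a scaffold protein phosphorylated after receptor engagement, was counted in all 16 libraries. It was at 6.01, 4.03, 4.40 and 7.18 CPM in brain CD11c cells, against 238, 249, 214 and 274 CPM in spleen CD11c cells. In ischemic microglia it was at 18.7, 17.5, 26.6 and 19.8 CPM, against 77.6, 72.2, 71.7 and 64.6 CPM in control microglia. The 4 groups did not overlap, with spleen CD11c cells highest, then control microglia, ischemic microglia and brain CD11c cells. The mean of control microglia was 29.4% of the spleen mean, that of ischemic microglia 8.48% and that of brain CD11c cells 2.22%.

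Bank1 was the only one of the 9 genes called between ischemic and control microglia, though Cd79a also passed without ischemic microglia replicate 3 (1.69, edgeR adjusted p = 0.0362). Bank1 was 3.46-fold lower in ischemic microglia, a log2 fold change of -1.79 ± 0.16 (SE, edgeR adjusted p = 1.13e-06), and ranked 398th from the lowest fold change of 16345 tested genes. In that comparison 35.7% of all tested genes were called, 17.7% higher and 18% lower. Apart from Bank1 and Cd79b, the members held 0 to 18 pooled counts in ischemic microglia and 2 to 21 in control microglia. Those members passed the filter on low counts through their spleen libraries, and Blk through its brain CD11c libraries as well. So few microglia counts made calls unlikely. The number of calls among the 9 genes therefore cannot be set against that background. In 23.3% of all tested genes every ischemic library lay below every control library, as for Bank1. The fold change of Bank1 lay between -1.95 and -1.73 under all 16 alternatives run. It was also lower in brain CD11c cells than in ischemic microglia, by -1.94 ± 0.17 (edgeR adjusted p = 2.05e-07), and lower in brain than in spleen CD11c cells, by -5.50 ± 0.19 (edgeR adjusted p = 8.75e-13). The microglia markers moved alongside. Of 8, 4 fell and 0 rose in ischemic against control microglia (median -0.66), with P2ry12 at 2170 CPM in ischemic and 4790 CPM in control microglia. All 8 were lower in brain CD11c cells than in ischemic microglia (median -1.68), beside 19.1% of all tested genes. Their part in the values of Bank1 and Cd79b was not tested.

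Pax5, the factor that commits cells to the B lineage, was at 0.122, 0.308, 0.553 and 0.569 CPM in brain CD11c cells, against 220, 309, 268 and 303 CPM in spleen CD11c cells. The brain CD11c libraries held 4 to 20 counts, ischemic microglia 0 or 1 and control microglia 0 to 3. Brain CD11c libraries were thus above all ischemic microglia, at a low level. Pax5 was lower in brain than in spleen CD11c cells by a log2 fold change of -9.45 ± 0.31 (SE, edgeR adjusted p = 5.19e-13). Against ischemic microglia, with 2 counts in all, brain CD11c cells with 53 counts were 29.8-fold higher with a 95% counting interval of 7.86 to 253, and the edgeR adjusted p was 0.000106.

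Ebf1, which acts before Pax5 in B cell development, was counted mainly in the spleen libraries, at 0.0608, 0.056, 0.138 and 0 CPM in brain CD11c cells against 42.5, 53.6, 53.9 and 57.9 CPM in spleen CD11c cells. Ischemic microglia held 8, 0, 0 and 5 counts and control microglia 4, 10, 7 and 0 counts. The 3 brain groups overlapped. The log2 fold change for brain against spleen CD11c cells was -9.56 ± 0.60 (SE, edgeR adjusted p = 1.47e-09), or -10.24 without brain CD11c replicate 3. For brain CD11c cells against ischemic microglia the pooled ratio was 0.78 with a 95% counting interval of 0.294 to 1.97, and the test gave an edgeR adjusted p of 0.821. Whether Pax5 and Ebf1 differ in this comparison was not tested.

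Ms4a1 encodes CD20, a membrane protein of B cells. It was at 0.213, 1.12, 1.77 and 4.11 CPM in brain CD11c cells, against 587, 724, 729 and 741 CPM in spleen CD11c cells. Microglia libraries held 0 to 6 counts. The lowest brain CD11c library, with 7 counts, lay just above every ischemic microglia library, and the highest had 130 counts. The log2 fold change was -8.60 ± 0.56 for brain against spleen CD11c cells (SE, edgeR adjusted p = 2.92e-09) and 3.90 ± 0.73 for brain CD11c cells against ischemic microglia (edgeR adjusted p = 0.000572). Without brain CD11c replicate 4 the values were -9.37 and 3.13, with both calls kept.

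Cr2, the gene of complement receptors CD21 and CD35, had at most 2 counts in any library from the brain. Brain CD11c libraries held 1, 1, 0 and 0 counts, ischemic microglia 0, 2, 0 and 0 and control microglia 2, 0, 0 and 0, while spleen CD11c cells stood at 429, 240, 453 and 422 CPM. All 12 libraries of the brain together held 6 counts, against 68723 counts in the 4 spleen libraries. Cr2 was 26200-fold lower in brain than in spleen CD11c cells in pooled counts, with a 95% counting interval of 7250 to 216000 (edgeR adjusted p = 2.66e-13). The pooled level of brain CD11c cells was 1.13 times that of ischemic microglia with an interval of 0.0816 to 15.5, so no difference was detectable at this depth. Cr2 also marks follicular dendritic cells. The 7 genes listed for these and other stromal cells summed to 155 to 186 CPM in brain CD11c cells and 1070 to 1780 CPM in spleen CD11c cells, where Vcam1, also made by macrophages, held 1390 ± 295 CPM, and 4 of the 7, among them the chemokine Cxcl13 at 0.185 to 0.448 CPM, were under 1 CPM in every spleen library. Their part in the level of Cr2 was not tested.

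Fcer2a, the gene of CD23, was at 0, 0.196, 0.581 and 0.348 CPM in brain CD11c cells, against 89.7, 72.7, 80.8 and 74.2 CPM in spleen CD11c cells. Ischemic microglia held 0 counts in all 4 libraries, which allows a level of up to 0.0195 CPM over the group (3 counts), and control microglia 3 counts in all. Brain CD11c replicate 1, at 0, tied with ischemic microglia, and the other 3 libraries stood above them. The log2 fold change for brain against spleen CD11c cells was -8.11 ± 0.47 (SE, edgeR adjusted p = 9.66e-09), or -8.76 without brain CD11c replicate 3. Brain CD11c cells, with 39 counts, were 14.6-fold higher than ischemic microglia when ischemic microglia as a group are set to a floor of 3 counts. The 95% counting interval of the ratio to the 0 counts found began lower, at 11.4. The edgeR adjusted p was 0.00248. Brain CD11c replicate 3 held 21 of the 39 counts, and without it the ratio at that floor was 9.19-fold (edgeR adjusted p = 0.00604). Counting intervals and floors cover counting error only.

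**Figure D2:**
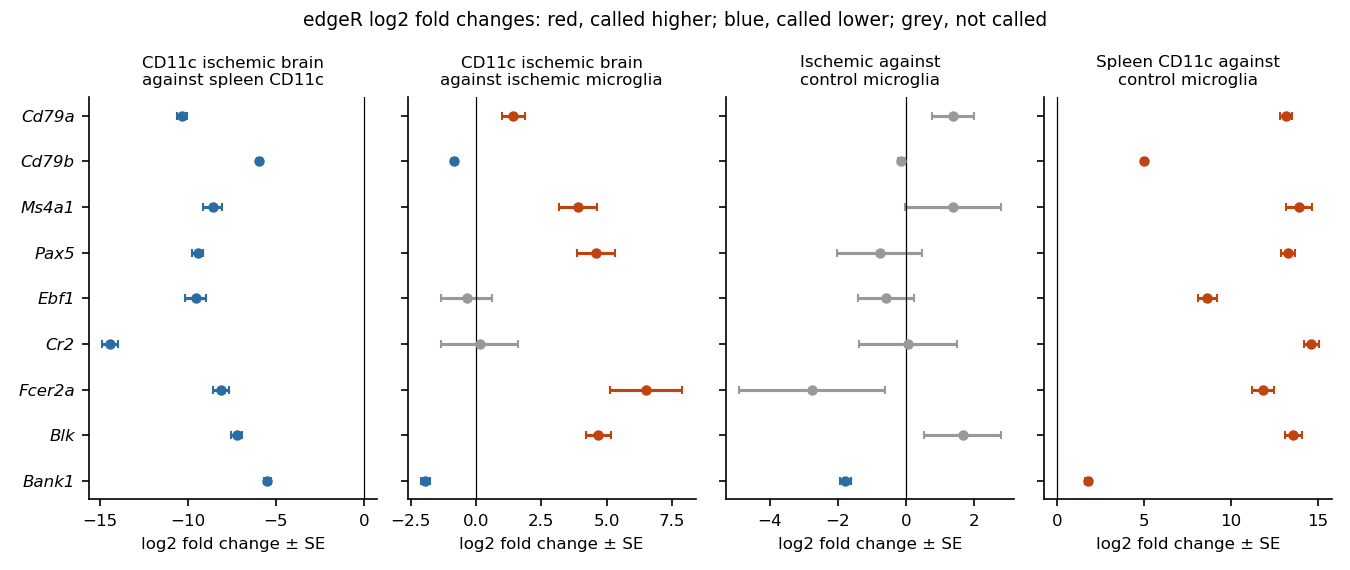
Log2 fold change of each of the 9 genes with its SE in the 4 comparisons, from the edgeR model over all 16 libraries. All 9 genes lie below 0 for brain against spleen CD11c cells, while Bank1 at -1.79 is the only call for ischemic against control microglia.

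Set against ischemic microglia, the brain CD11c cells thus differed in 7 of the 9 genes. Higher were Cd79a, Blk, Pax5, Ms4a1 and Fcer2a, lower were Cd79b and Bank1, and Ebf1 and Cr2 did not pass the test. Of all tested genes 38.8% were called in this comparison, 19.7% higher and 19.1% lower. Libraries did not overlap for Blk, Pax5 and Ms4a1 above and for Cd79b and Bank1 below, and over all tested genes this held for 14.9% above and 16.5% below. Cd79a, Pax5, Ebf1, Ms4a1, Cr2 and Fcer2a passed the filter on low counts only through spleen libraries, and Blk through CD11c libraries of both tissues. They held 0 to 18 pooled counts in ischemic microglia. The number of calls among the 9 genes therefore cannot be set against those shares. The 5 members that were higher had mean levels of 0.0438 (Pax5) to 0.649 (Blk) CPM per kb of exon in brain CD11c cells, whereas the 2 that were lower stood at 0.722 ± 0.195 (Bank1) and 6.86 ± 0.299 (Cd79b) CPM per kb. Markers of further lineages moved in both directions. Of 10 conventional dendritic cell genes 9 were higher (median 6.18), and of 12 T cell genes 6 were higher and 1 lower (median 2.37), with a summed T cell level of 12.5 to 29.9 CPM in brain CD11c cells against 10.3 to 23.9 CPM in ischemic microglia. Plasmacytoid dendritic cell genes were 6 higher and 4 lower of 12 (median 0.74), and plasma cell genes 4 higher and 2 lower of 10 (median 0.53). NK cell genes went the other way, with 1 higher and 4 lower of 8 (median -2.71). The part of these markers was not tested. With brain CD11c replicates 1 and 2 alone, Pax5 stood at 3.78 (edgeR adjusted p = 0.00232) and Ms4a1 at 2.5 (edgeR adjusted p = 0.00676) on the log2 scale. Fcer2a, with 7 of its 39 counts left, all of them in replicate 2, passed at an edgeR adjusted p of 0.0229. Replicate 1 held 0 counts, as did ischemic microglia, so that call rests on 1 library.

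**Figure D3:**
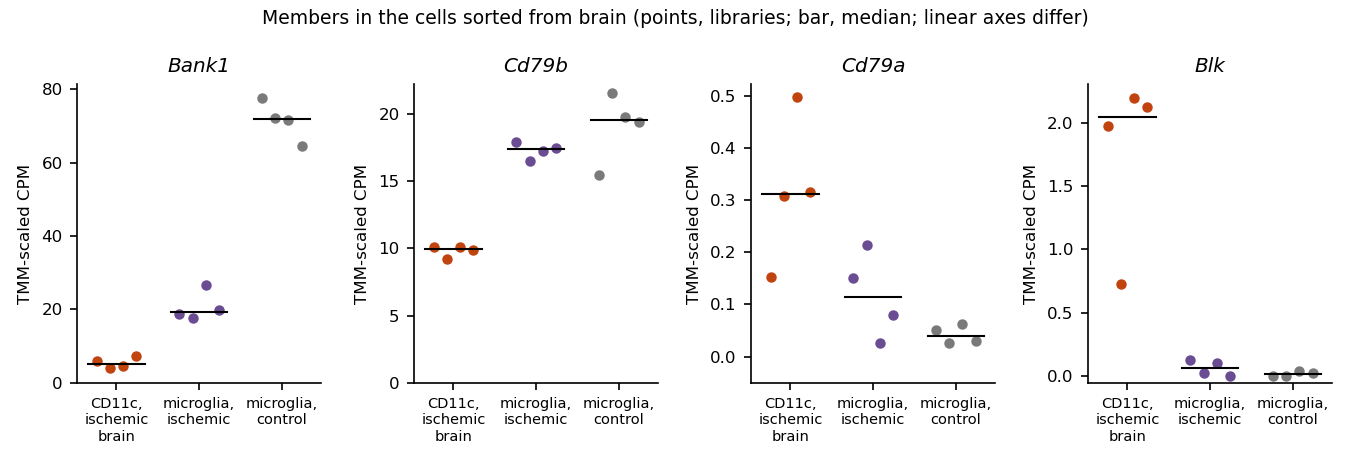
Levels of Bank1, Cd79b, Cd79a and Blk in the 12 libraries from brain, in CPM on linear axes that differ between panels, with a point per library and a bar at the median, grouped as brain CD11c cells, ischemic microglia and control microglia. Bank1 separates into 3 levels with control microglia highest, and Blk lies at 0.728 to 2.19 CPM in brain CD11c cells, above all microglia.

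Levels per kilobase of exon put the 9 genes in one order in spleen CD11c cells and another in the brain. In spleen CD11c cells Cd79b led at 425 ± 52.4 CPM per kb, followed by Cd79a at 288 ± 47.9, Ms4a1 at 112 ± 11.7 and Blk at 97.7 ± 12.8 CPM per kb. Cr2 at 47.6 ± 12.1, Bank1 at 32.5 ± 3.34, Pax5 at 31.0 ± 4.62 and Fcer2a at 25.7 ± 2.51 CPM per kb came next, and Ebf1 was lowest at 5.33 ± 0.679 CPM per kb. Ms4a1 and Blk lay within the sum of their SDs of each other, as did Cr2 and Bank1, Bank1 and Pax5, and Pax5 and Fcer2a. In brain CD11c cells Cd79b led at 6.86 ± 0.299 CPM per kb, above Bank1 at 0.722 ± 0.195 and Blk at 0.649 ± 0.255, which lay within their SDs. Ms4a1 at 0.292 ± 0.269, Cd79a at 0.219 ± 0.0972, Fcer2a at 0.091 ± 0.0794 and Pax5 at 0.0438 ± 0.0242 CPM per kb followed, each within the sum of SDs of the next. In control microglia Cd79b at 13.3 ± 1.81 and Bank1 at 9.56 ± 0.713 CPM per kb led, with Cd79a next at 0.0285 ± 0.0118 CPM per kb. In ischemic microglia Cd79b stood at 12.1 ± 0.423 and Bank1 at 2.76 ± 0.548 CPM per kb.

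The spleen replicates did not vary together in every member. Replicate 1 was lowest for Cd79a, Cd79b, Blk, Pax5, Ebf1 and Ms4a1, at 0.800 to 0.845 of the group mean, but highest for Fcer2a at 1.13 of the mean. Cr2 was lowest in replicate 2, at 0.623 of the mean. The highest library exceeded the lowest 1.23-fold for Fcer2a and 1.89-fold for Cr2, the extremes of the 9 genes. Of the 7 genes listed for germinal centre B cells, 6 were highest in spleen replicate 2, a tally made after the values were seen. Bcl6 was highest in replicate 3, at 114 CPM against 98.8 CPM in replicate 2. Mef2b, among the 6, lay near the floor, at 0.085 CPM in replicate 2 and 0.0747 CPM in replicate 1, and did not pass the filter. Mybl1, a transcription factor of the Myb family, was at 12.4, 61.4, 38.1 and 29.4 CPM and Gcsam at 26.0, 60.4, 43.0 and 27.3 CPM in spleen replicates 1 to 4. The marginal zone and germinal centre genes drawn in the plot of spleen replicates were chosen after their values were seen. These are values of single libraries of 1 group, with no test.

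**Figure D4:**
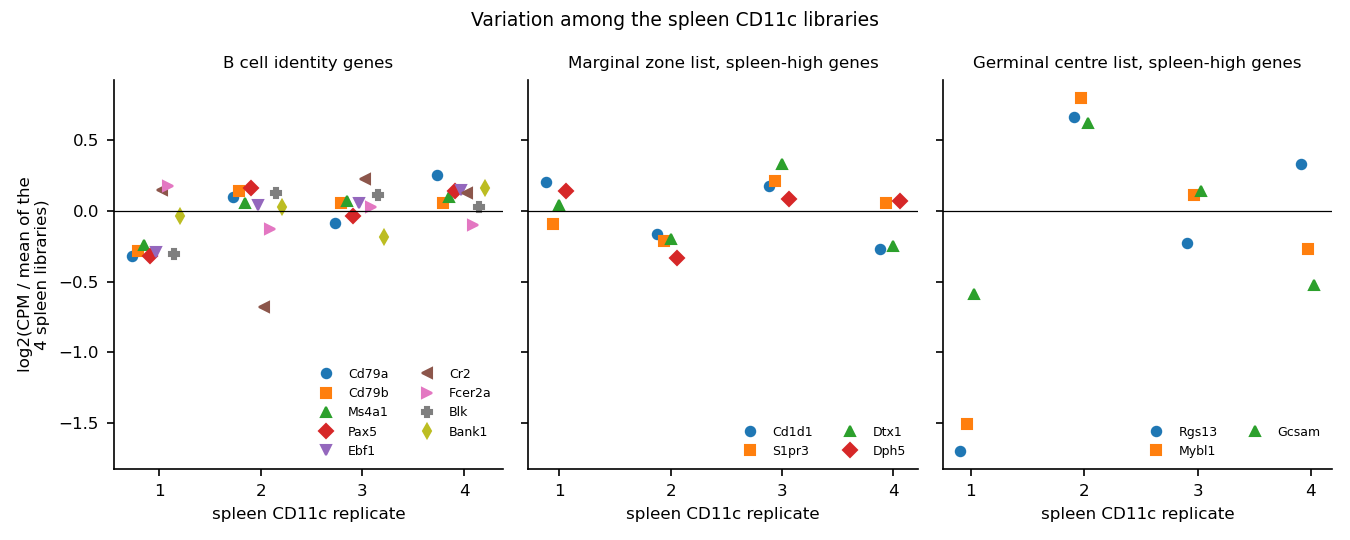
Log2 of the level (CPM) over the spleen mean in each of the 4 spleen CD11c libraries, for the 9 genes (left) and for marginal zone (middle) and germinal centre (right) genes that are high in spleen, with a point per gene and library. Cr2 lies lowest in replicate 2, at 0.623 of the mean, where Mybl1 and Gcsam are highest.

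Genes that carry the receptor signal onward or dampen it were counted in all 4 groups, though 1 was under 1 CPM in every microglia library. The 26 genes tested summed to 6520 to 7490 CPM in brain CD11c cells, 6960 to 7830 CPM in spleen CD11c cells, 7950 to 8980 CPM in ischemic microglia and 7640 to 8070 CPM in control microglia. Of 26 signalling genes tested, 9 were higher and 11 lower in brain than in spleen CD11c cells, with a median log2 fold change of 0.09 beside -0.036 for all tested genes. Of all tested genes 31.2% were higher and 33% lower. Cd22, an inhibitory lectin of B cells, was at 38.3 ± 10.7 CPM in brain CD11c cells and 681 ± 137 CPM in spleen CD11c cells, a log2 fold change of -4.15 ± 0.20 (SE, edgeR adjusted p = 3.02e-11). Fcgr2b, the inhibitory Fc receptor, was higher at 610 CPM in brain CD11c cells against 160 CPM in spleen CD11c cells (1.93 ± 0.16, edgeR adjusted p = 1.99e-08). Syk, the kinase recruited to the CD79 chains, was present throughout, with 519 CPM in brain CD11c cells, 760 CPM in spleen CD11c cells, 305 CPM in ischemic microglia and 357 CPM in control microglia. Syk is named here after its values were seen.

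Against ischemic microglia 8 of the 26 signalling genes were higher in brain CD11c cells and 9 lower (median -0.17 beside 0 for all tested genes). Of all tested genes 19.7% were higher and 19.1% lower. Siglecg, of the same lectin family as Cd22, was at 62.1 ± 33.8 CPM in brain CD11c cells and 2.35 ± 0.907 CPM in ischemic microglia (log2 fold change 4.72 ± 0.38, edgeR adjusted p = 1.29e-07). Between ischemic and control microglia 9 rose and 3 fell (median 0.13 beside -0.051), beside 17.7% higher and 18% lower of all tested genes. The coreceptors Cd72 and Cd22 were among those that rose, Cd72 to 258 ± 37.2 CPM in ischemic microglia against 16.6 ± 3.64 CPM in control microglia (3.96 ± 0.21, edgeR adjusted p = 3.24e-09), and Cd22 to 71.0 ± 2.90 CPM in ischemic microglia against 21.4 ± 2.79 CPM in control microglia (1.73 ± 0.18, edgeR adjusted p = 3.56e-06). Bank1 and Siglecg fell in the same comparison, Siglecg by 1.51 ± 0.35 on the log2 scale (edgeR adjusted p = 0.00384).

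Other genes known from the B lineage followed the members in the spleen comparison. Of 25 tested, 22 were lower and 1 higher in brain than in spleen CD11c cells (median -3.64), beside 33% lower and 31.2% higher of all tested genes. In spleen CD11c cells 21 were higher and 1 lower than in control microglia (median 5.01), beside 37.1% higher and 31.7% lower. The list was chosen with earlier results of these data known, so its counts only describe these genes and are no independent support. Fcmr, the IgM receptor, was at 0.138 CPM in brain CD11c cells and 259 CPM in spleen CD11c cells (-10.90 ± 0.40, edgeR adjusted p = 2.31e-12), and Pou2af1, the octamer coactivator, at 0.292 CPM in brain and 459 CPM in spleen CD11c cells (-10.57 ± 0.41, edgeR adjusted p = 4.75e-12). The 1 higher was Cd72, at 472 ± 12.3 CPM in brain and 222 ± 65.7 CPM in spleen CD11c cells. Against ischemic microglia 16 were higher and 8 lower in brain CD11c cells (median 1.73), beside 19.7% higher and 19.1% lower of all tested genes. Among the higher was Spib, a transcription factor shared with plasmacytoid dendritic cells, at 11.0 ± 2.86 CPM in brain CD11c cells against 0.123 ± 0.0734 CPM in ischemic microglia. Between ischemic and control microglia 5 rose and 4 fell (median 0), beside 17.7% higher and 18% lower of all tested genes. The share called was thus near that of all tested genes, 35.7%. Among those that fell, Ralgps2 was at 30.4 CPM in ischemic against 53.7 CPM in control microglia (-0.82 ± 0.10, edgeR adjusted p = 2.79e-05). Tnfrsf13b was at 72.1 CPM in ischemic against 100 CPM in control microglia (-0.47 ± 0.10, edgeR adjusted p = 0.00168).

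Immunoglobulin constant genes, and 7 of 10 plasma cell genes, were lower in brain than in spleen CD11c cells, beside 33% of all tested genes. Of the 6 immunoglobulin constant genes all were lower in brain than in spleen CD11c cells (median -10.08), and their sum was 125 to 244 CPM in brain CD11c cells, against 36100 to 125000 CPM in spleen CD11c cells. Ighm, the IgM heavy chain, was at 166 ± 53.4 CPM in brain CD11c cells, 40800 ± 25500 CPM in spleen CD11c cells, 346 ± 109 CPM in ischemic microglia and 590 ± 39.1 CPM in control microglia, and was lower in brain CD11c cells than in ischemic microglia (-1.06 ± 0.36, edgeR adjusted p = 0.0294). Igkc, the kappa light chain, was at 18.6 ± 26.0 CPM in brain CD11c cells, 28400 ± 12800 CPM in spleen CD11c cells, 2.09 ± 0.290 CPM in ischemic microglia and 1.81 ± 0.138 CPM in control microglia. Microglia thus held Ighm with little Igkc. The plasma cell genes had a median of -2.83 and 3 of the 10 did not pass, with Sdc1 at 30.4 CPM in brain and 49.2 CPM in spleen CD11c cells. Of those that passed, Jchain stood at 3.88 ± 5.33 CPM in brain and 5290 ± 1570 CPM in spleen CD11c cells. Of 12 T cell genes all 12 were lower too, with sums of 12.5 to 29.9 CPM in brain and 288 to 605 CPM in spleen CD11c cells. What these populations add to the spleen values was not tested.

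Genes listed for B cell subsets were described by counts, beside 31.2% higher and 33% lower of all tested genes for brain against spleen CD11c cells. Such a gene is not limited to B cells in these libraries. The marginal zone gene Cd9, for 1, stood at 1200 CPM in ischemic microglia and 68.0 CPM in spleen CD11c cells. For brain against spleen CD11c cells, 4 of 8 marginal zone genes were lower and 3, Cd9, Myof and Tm6sf1, higher (median -0.95). Of 6 follicular genes 4 were lower and 1, Ccr7, higher (median -1.80). Of 6 tested germinal centre genes 4 were lower and 1 higher (median -3.09), and of 7 genes of CD11c+ age-associated B cells 4 were lower and 1 higher (median -2.21). In the last list Fcrl5 was at 0.518 ± 0.169 CPM in brain CD11c cells and 79.5 ± 11.1 CPM in spleen CD11c cells (-7.25 ± 0.27, edgeR adjusted p = 1.67e-12), and Itgax, which drives the reporter, at 756 ± 207 CPM in brain and 573 ± 169 CPM in spleen CD11c cells (edgeR adjusted p = 0.234). Of 10 genes of early B cell stages 5 passed the filter on low counts, and 2 of them, Cd93 and Il7r, were higher and 1 lower in brain CD11c cells. Rag1, which did not pass the filter, averaged 0.0138 CPM in brain and 0.133 CPM in spleen CD11c cells.

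**Figure D5:**
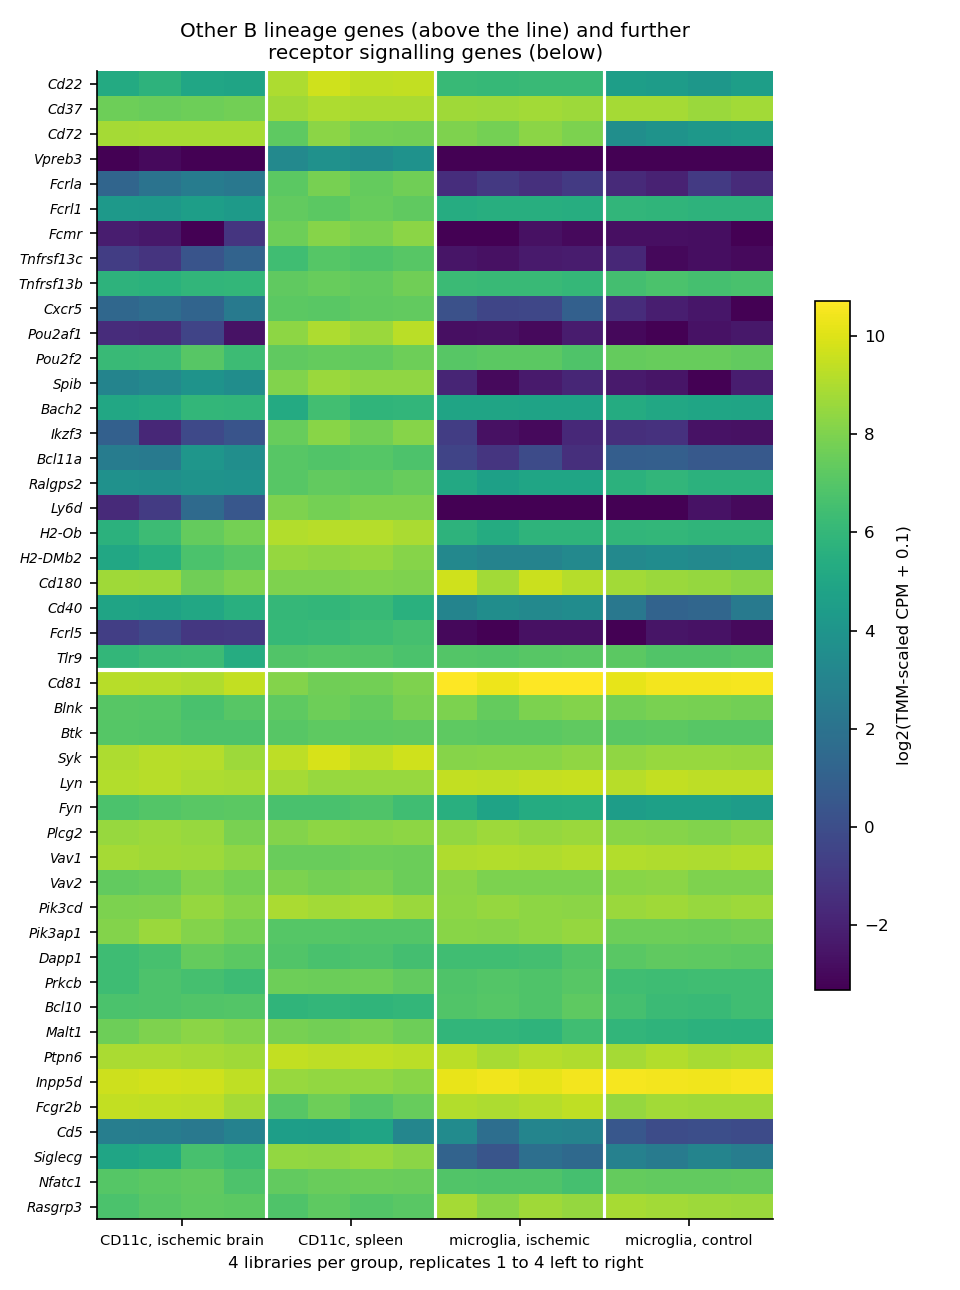
Log2 of CPM + 0.1 for B lineage genes drawn from the lists (rows above the line) and further receptor signalling genes (rows below it) in the 16 libraries (columns), from left to right brain CD11c cells, spleen CD11c cells, ischemic microglia and control microglia. Fcmr and Pou2af1 are brightest in the spleen columns, Cd72 is brightest in brain CD11c cells, and Syk is bright in all 4 groups.

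Over the 16 libraries, 8 members correlated with the mean standardized profile of all 9 at Pearson r of 0.938 (Blk) to 0.993 (Cr2), and Bank1 at 0.737. These correlations describe a set in which 4 spleen libraries stand apart from 12 brain libraries. By the same measure the genes most like the members were Ubd (0.9964), Kcnj1 (0.9961), Vpreb3 (0.996), Grm6 (0.9956), Terb1 (0.995), Btnl4 (0.9949), Prg2 (0.9946) and Pigr (0.9946). Most were low. Kcnj1 averaged 0.766 CPM and Vpreb3, a pre-B cell receptor-associated gene, 12.2 CPM in spleen CD11c cells.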

How the data were processed

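Reads per gene were counted by the authors and deposited as whole-number counts for 16 libraries. Per the labels' protocols, cells were freed by enzymatic digestion and a Percoll step and sorted on the reporter alone, with no staining, and TruSeq Stranded mRNA libraries were made. Per the submitters' processing notes, FastQC 0.11.5, STAR 2.5.3a and GRCm38 were used. The counting program and its strand setting: not given in the sources used here. Of 50600 genes, 50376 were named by GENCODE M21 and 224 were left unnamed.

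Counts were scaled by TMM and fitted with edgeR 4.0.16 (glmQLFit, robust, glmQLFTest, filterByExpr) under R 4.3.3, all 16 libraries in 1 model, two-sided, with Benjamini-Hochberg adjustment over 16345 genes and a threshold of 0.05. The SE is that of the log2 fold change. Totals of 31569304 to 48245164 counts per library set the precision, and with few counts exact conditional intervals at 95% are given. DESeq2 1.42.0, limma 3.58.1, other scalings, filters and left-out libraries were tried. The fit was tested on simulated data. The members and lists were chosen with earlier results of these data known. From each list, up to 3 called genes with the largest change in each direction could be named. Some genes outside that rule were named too, among them Sdc1 and Itgax, not called between brain and spleen CD11c cells, and Rag1 and Mef2b, not tested. The 8 genes of highest Pearson correlation with the members' mean profile were named as well, leaving out predicted genes and receptor segments. No library repeated another (lowest chi-square per degree of freedom 10.3). A few listed genes are not reported here by name and were left out of the figures.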

Additional observations from a re-analysis of the deposited data

Results flagged for a closer look

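In 3 of 29 sets of 4 libraries, made of a member and a group, a single library lay farther from the others than Dixon's 95% critical value for 4 samples allows. Chance gives about 1 in 20. Ms4a1 was lowest in spleen CD11c replicate 1, at 587 CPM, with the others at 724 to 741 CPM. Cr2 was lowest in spleen CD11c replicate 2, at 240 CPM, with the others at 422 to 453 CPM. Blk was lowest in brain CD11c replicate 2, at 0.728 CPM, with the others at 1.97 to 2.19 CPM.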

How the results depend on the processing

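The 36 fold changes of the 9 genes in 4 comparisons were recomputed under 15 to 18 alternatives each, giving 599 values in all. Of these values 595 kept their direction and side of the threshold, or stayed uncalled, while 0 called values reversed. The exceptions concern Cd79a. For brain CD11c cells against ischemic microglia its call was lost with limma-voom (1.53, limma adjusted p = 0.0793) and with fewer brain CD11c libraries, as reported above. For ischemic against control microglia it was 1.38 (edgeR adjusted p = 0.0999) and passed without ischemic microglia replicate 3 (1.69, edgeR adjusted p = 0.0362). With replicates left out in turn, the genes called numbered 9877 to 10887 for brain against spleen CD11c cells, 5338 to 6621 for brain CD11c cells against ischemic microglia, 4611 to 5574 for ischemic against control microglia and 10766 to 11091 for spleen CD11c cells against control microglia. Scaling by library totals moved the median of all genes by -0.267, 0.097, -0.148 and 0.231 in that order, and the share of higher calls to 34.9%, 62.4%, 33.5% and 63.9%, against 48.6%, 50.7%, 49.5% and 53.9% with TMM. Bank1 between ischemic and control microglia was -1.94 under that scaling. Members at a few counts in microglia moved most, and their fold changes are limited by depth. Low members dropped out of some fits of 2 groups alone and gave no value there. No paired analysis was possible because the groups compared share fewer than 2 title numbers in each comparison. Number 11 alone stands on both a brain and a spleen CD11c library, and leaving out either of these changed no call of the 9 genes between brain and spleen CD11c cells.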
